A study of Mus musculus with 6 samples.

Results

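Cluster 2 of the control uterine epithelium was a group of luminal cells with high Serpina1c and Krt84. Kap was highest there too, but luminal cluster 1 lay less than 1.5-fold below it. Cluster 2 also had low immediate early gene RNA, a trait shared with luminal clusters 1, 6 and 10 and, less strongly, 9. Its 276 cells were those that the authors' metadata place in cluster 2 of their clustering of corn oil (CO) epithelial cells. They made up 276 of the 2583 CO cells with an epithelial cluster and counts, or 10.7% (95% exact binomial interval 9.52 to 11.9%). The series holds 48699 cells in all, of which 32387 are in the CO library. Each of the 276 cells was named epithelial by the authors and had passed their quality filter.

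The uteri came from female CD-1 mice that were given corn oil, or diethylstilbestrol (DES, a synthetic estrogen) in corn oil at 1 mg/kg/day, under the skin on days 1 to 5 after birth, and that were killed at 12 months of age. The CO mice were taken in estrus, as judged by vaginal observation, and the study describes adult DES mice as being in persistent estrus. No hormone level is given. One single-cell library was made for each condition, from the pooled uteri of 2 CO mice and of 4 DES mice, and cells cannot be assigned to a mouse here. RNA was also counted in spots on 2 CO and 2 DES uterine sections from 1 mouse each. With 1 library per condition, and clusters that were formed from these same counts, no test was made between clusters. The intervals below cover counting error only.

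The luminal epithelium is the single layer of columnar cells that lines the uterine cavity. It responds to estrogen with growth and with secretion of defence proteins and small proline-rich proteins, and it is the surface to which an embryo attaches. Immediate early genes such as Fos, Jun and Egr1 encode transcription factors whose transcription starts within minutes of a growth factor, stress or injury signal, without new protein synthesis, and their RNA is short lived. Serpins are mostly inhibitors of serine proteases, and Kap and the Sprr2 genes are known for their hormone dependence in the kidney and uterus.

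The cells of cluster 2 were rich in captured RNA. The median cell held 34711.5 UMIs (unique molecular identifiers, each counting 1 captured RNA) and 5577.5 genes. The medians of the 8 other luminal clusters (0, 1, 5, 6, 7, 9, 10 and 11) ran from 16393 to 34009 UMIs. Cluster 4, the dividing cells that the study counts as luminal progenitors, was not placed in this group here. In cluster 2 the mitochondrial share of UMIs in the median cell was 10.7%, within the 8.06 to 18.4% of the other luminal clusters. Of the 276 barcodes, 2 also occurred in the DES library, where 1 of them belonged to a clustered epithelial cell. Without the cells of such shared barcodes 14 genes were still at least 1.5-fold higher and 128 lower.

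The luminal label was checked against its markers. Epcam, an adhesion protein of epithelial cells, stood at 999.8 CPM (summed UMIs of the gene over all UMIs of the cluster, scaled as counts per 1e6; 95% exact Poisson interval 981 to 1019), and the other luminal clusters ranged from 978 to 1179 CPM. Cdc42ep2, which binds the GTPase Cdc42 and is 1 of 8 genes that the study chose on this library as luminal, stood at 99.8 CPM (93.9 to 106), the second highest of the 9 luminal clusters. It was at 5.51 to 9.38 CPM in gland clusters 3, 8, 13 and 14. The 8 luminal genes summed to 843 CPM, against 499 to 1082 CPM in the other luminal clusters. That list was picked on these cells and is no independent support.

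Markers of most other cells were low, with the developing gland list as the exception. Its 6 genes summed to 3654 CPM (3618 to 3690), above the 518 to 3245 CPM of the other luminal clusters and below the 51852 to 72647 CPM of clusters 3, 8 and 14, and Prap1 gave 3512 CPM of it. The 4 basal markers summed to 4.29 CPM (3.14 to 5.72), the highest of the 15 clusters, against 0.531 to 2.90 CPM in the other luminal clusters. The 5 mature gland markers summed to 20.5 CPM, where the highest of the 15 clusters reached 84983 CPM. The 8 proliferation genes summed to 28.9 CPM, compared with up to 1399.5 CPM in cluster 14. The 5 stromal markers summed to 172 CPM, the lowest of the 15 clusters, of which Dcn gave 147 CPM. Endothelial markers gave 3.17 CPM, smooth muscle markers 4.85 CPM, mesothelial markers 33.0 CPM, myeloid markers 51.8 CPM and lymphocyte markers 0.466 CPM, with 3 of the 5 lymphocyte markers at 0. Estrogen receptor alpha (Esr1) was at 215 CPM and the progesterone receptor (Pgr) at 80.7 CPM, against 230 and 83.0 CPM in the pool of the 8 other luminal clusters.

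In that pool of 1632 cells and in cluster 2, 2827 of 24077 genes reached 50 CPM in at least one of them. Of these, 14 were at least 1.5-fold higher in cluster 2 (0.495%) and 130 at least 1.5-fold lower (4.6%), and the median log2 ratio over all 2827 genes was 0.00. The 14 higher genes were each highest in cluster 2 among the 9 luminal clusters, whereas of the 130 lower genes 48 were lowest there. Over all 2827 genes cluster 2 was the highest of the 9 for 299 (10.6%) and the lowest for 227 (8.03%). The clusters were built on the same counts, so these numbers describe the cluster and test nothing.

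**Figure D1:**
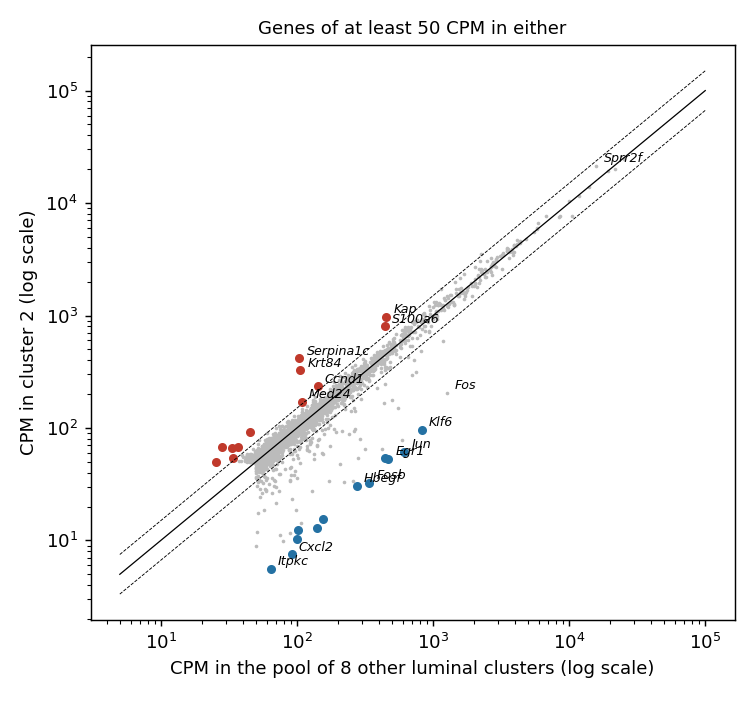
Level of each of 2827 genes in cluster 2 (vertical axis, CPM, log scale) against the pool of 8 other luminal clusters (horizontal axis, CPM, log scale). The solid line marks equal levels and the dashed lines 1.5-fold; red points are the 12 genes with the highest ratio, among them Serpina1c at 415 against 104 CPM, and blue points are the 12 with the lowest, among them Jun at 61.5 against 615 CPM.

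The 2 serpins Serpina1c and Serpinb7, with the keratin Krt84, led the genes that were higher. Serpina1c, a mouse alpha-1-antitrypsin that inhibits elastase, is on chromosome 12 of GRCm38 (103894926 to 103904887, minus strand). It was at 415 CPM in cluster 2 (403 to 427, from 4449 UMIs), and the other luminal clusters ran from 6.91 CPM in cluster 11 over a median of 101 CPM to 163 CPM in cluster 0. No other luminal cluster overlapped, and the fold over the pool was 3.98 (3.82 to 4.14). Outside the luminal clusters the highest levels were 236 CPM in cluster 3 and 266 CPM in cluster 14, where Prap1 of the developing glands was also high.

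Serpina1c lies in a family of near-identical copies, so its reads may be shared with its neighbours. Serpina1a was at 31.2 CPM, Serpina1b at 6.62 CPM and Serpina1d at 1.49 CPM, with log2 ratios to the pool of 1.90, 2.15 and 1.90. The assignment of UMIs among them is uncertain.

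Krt84, a type II keratin of hard structures such as tongue papillae and nail, was at 325 CPM (315 to 336) in cluster 2. The other luminal clusters held 27.8 CPM in cluster 5 to 157 CPM in cluster 0, with a median of 93.7 CPM. The pooled level was 3.08-fold lower than in cluster 2 (2.95 to 3.21). In the remaining clusters Krt84 was at 7.35 to 88.3 CPM, with the highest level in cluster 4.

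Serpinb7, an intracellular serpin of squamous epithelium, stood at 68.0 CPM (63.1 to 73.1) against 28.3 CPM in the pool, and its highest luminal neighbour was cluster 5 with 43.3 CPM. The gene was not highest in cluster 2 among all 15 clusters, since cluster 12, the proposed stem cells, held 408 CPM. Serpinb11, which starts upstream of Serpinb7 on chromosome 1 (107361198 to 107380475 and 107399655 to 107452689, both on the plus strand), was at 65.7 CPM (61.0 to 70.8) against 33.1 CPM, and cluster 7 came close with 61.7 CPM. Of the 18 serpins listed, 8 reached 50 CPM and 3 of these were at least 1.5-fold higher, against 0.495% of all genes, with none lower. Serpinb7 and Serpinb11 reached the level only through cluster 2, so they had to be higher. The serpin list was chosen with earlier results of these data known, so its count is no test.

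Kap, an androgen- and estrogen-regulated gene of the kidney, was at 969 CPM (951 to 988) against 451 CPM in the pool. The levels in the other luminal clusters went from 75.6 CPM in cluster 5 to 731 CPM in cluster 1. S100a6, a calcium-binding protein, was at 802 CPM (785 to 819) and in the other luminal clusters at 145 to 548 CPM. Neither range reached cluster 2. In other cell types of the CO library S100a6 was higher still, at 6024 CPM in mesothelial and 1919 CPM in stromal cells.

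The remaining genes of the 12 highest ratios encode a nuclear cytokine, cell cycle regulators and others. Il33, an alarmin of barrier epithelium, was at 91.9 against 45.2 CPM. Cdkn2a, which encodes the cell cycle inhibitors p16 and p19Arf, was at 50.3 against 25.4 CPM, while Ccnd1 and Ccnd2, the D-type cyclins that drive entry into the cell cycle, were at 234 against 142 CPM and 53.9 against 33.7 CPM. C2cd4a was at 67.9 against 36.6 CPM, and Med24, a Mediator subunit, at 170 against 108 CPM. These 6 genes were 1.58- to 2.03-fold higher than in the pool. Outside the luminal clusters 4 of them stood above cluster 2, with Cdkn2a at 169 CPM, Ccnd1 at 389 CPM and Ccnd2 at 355 CPM in cluster 12 and C2cd4a at 249 CPM in cluster 8. Ccnd2 was also above cluster 2 in CO mesothelial cells, at 155 CPM. The folds of Ccnd2 (1.45 to 1.76) and Med24 (1.49 to 1.66) had intervals that reached below 1.5-fold. Il33, Cdkn2a, C2cd4a and Ccnd2 were below 50 CPM in the pool. They passed the level only through cluster 2, so they had to be higher.

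**Figure D2:**
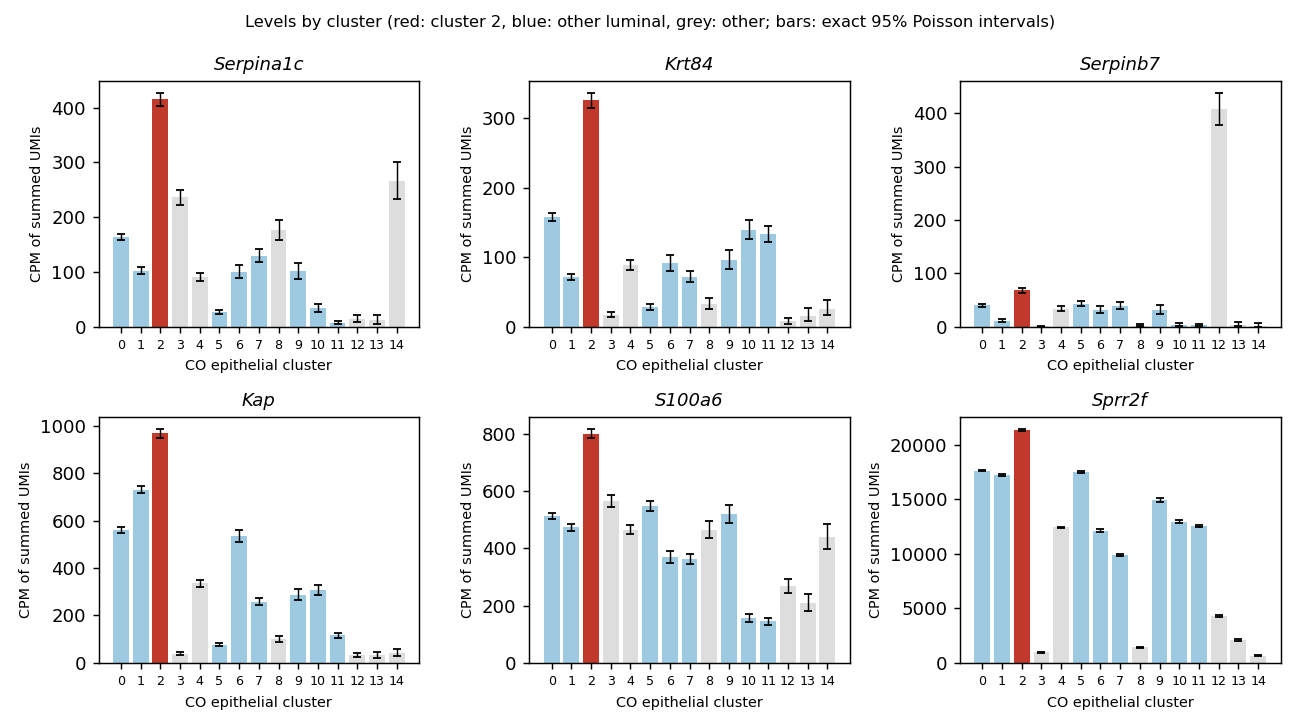
Levels of 6 genes in the 15 CO epithelial clusters, as CPM of summed UMIs with exact 95% Poisson intervals; cluster 2 is red, the other luminal clusters are blue and the rest grey. Serpina1c, Krt84, Kap, S100a6 and Sprr2f were highest in cluster 2 (415, 325, 969, 802 and 21402 CPM), and Serpinb7 in cluster 12 (408 CPM).

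The 2 further genes past 1.5-fold were Prap1, a secreted acidic protein of gland and gut epithelium, at 3512 against 2257 CPM, and Sprr2a3 at 1725 against 1139 CPM. In gland clusters 3, 8 and 14 Prap1 reached 41168 to 57405 CPM. The small proline-rich proteins, which are cross-linked into the envelope of squamous cells and are abundant in the estrogen-stimulated uterus, summed to 23910 CPM in cluster 2, the highest of the 15 clusters. Sprr2f gave most of this, at 21402 CPM against 15869 CPM in the pool, or 1.35-fold. Of 14 listed genes 13 were measured and 4 reached 50 CPM, of which 1 was at least 1.5-fold higher (0.495% of all genes), with a median log2 ratio of 0.23. Sprr2 genes are close copies, and their counts are subject to the same doubt as those of Serpina1.

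Most other lists were close to the pool. Of 17 estrogen-responsive genes 15 reached 50 CPM, and 2 (Kap and Sprr2a3) were higher, against 0.495% of all genes, with none lower. Among its secreted defence proteins Ltf (lactoferrin) was at 2285 against 2730 CPM and complement C3 at 1487 against 1935 CPM, C3 being the lowest of the 9. Clca1, a secreted regulator of mucus, was highest of the 9 at 2148 CPM. Of 20 redox and glutathione genes 14 reached the level and none passed 1.5-fold, although their summed level of 11696 CPM was the highest of the 15 clusters, with Gpx1 at 3070 against 2209 CPM. The 74 oxidative phosphorylation genes at the level had a median log2 ratio of 0.15, the 79 ribosomal protein genes 0.02, and no gene of either list passed 1.5-fold. Of the 20 Wnt genes 3 reached the level and none passed 1.5-fold.

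The lists without a member past 1.5-fold also held the steroid receptors (2 of 7 at the level), the progesterone-responsive genes (1 of 9), the mucosal defence genes (11 of 17), the ion and water transport genes (8 of 15), MHC class I and interferon genes (10 of 16) and MHC class II genes (0 of 7). Aqp4, a water channel, showed a wide range among the luminal clusters, from 2.13 CPM in cluster 11 to 152 CPM in cluster 5, and was at 99.6 CPM in cluster 2. Muc13, a membrane mucin below the 50 CPM level, was at 30.6 CPM against 11.9 CPM.

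Detection per cell also differed. After each cell was thinned to 5000 UMIs, which left out 2 cells of cluster 2 and 31 of the pool, Serpina1c was detected in 57.7% of cluster 2 cells (51.6 to 63.6%) and in 24.5% of the pool (22.5 to 26.7%). In CO mesothelial cells, which line the outside of the uterus, it was detected in 4.73%. Krt84 was detected in 51.5% of cluster 2 cells, in 400 of 1601 pool cells and in 5.44% of mesothelial cells. Kap was detected in 65.0%, 44.7% and 19.9%. In the same thinned mesothelial cells the epithelial genes Epcam and Sprr2a3 were detected in 31.5% and 27.7%. Kap was also counted in CO stromal cells (52.5 CPM) and CO lymphocytes (92.1 CPM). Whether these cells made such RNA or carried it over from epithelial cells was not tested. Without thinning the shares in cluster 2 and the pool were 87.0% and 53.1% for Serpina1c, 85.1% and 54.3% for Krt84, and 87.7% and 74.8% for Kap.

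At 5000 UMIs the Serpina1c count per cell of cluster 2 had a median of 1, an upper quartile of 4 and a highest value of 22. Kap reached 84 UMIs with a median of 2. Serpina1c and Krt84 counts went together weakly over the 274 thinned cells (Spearman rho 0.37), and Serpina1c and Prap1 more so (rho 0.57). These points share 1 library of 2 pooled mice and a fixed depth, and the correlations are descriptions. Between the CO sections of 2 other mice, Serpina1c was at 146 and 839 CPM and Prap1 at 3200 and 32719 CPM. The part of a difference between the pooled mice in the correlations was not tested.

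Immediate early genes gave 24 of the 130 lower genes and most of the lowest ratios. All 32 genes on that list were below their level in the pool, and 25 reached 50 CPM. Of these, 9 did so only through the pool and so had to be lower. Of the 16 that reached 50 CPM in cluster 2 itself, 15 were at least 1.5-fold lower, against 4.6% of all genes, and the exception was Klf4, at 351 against 444 CPM. The list was chosen with earlier results of these data known, so this count describes the cluster and tests nothing. The list summed to 3166 CPM in cluster 2 and to 10494 CPM in the pool, a 3.31-fold difference. The bases just before the start of 4 of these genes are shown because the genes were low together. All 4 hold TGACG, the core of the cyclic AMP response element, which not all genes of the list do. RefSeq promoters on GRCm38.p6 supply 200 bases each, 5′ to 3′, with TGACG (on either strand) and TATAAA in capitals.

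Fos, chr12:85473690-85473889, plus strand: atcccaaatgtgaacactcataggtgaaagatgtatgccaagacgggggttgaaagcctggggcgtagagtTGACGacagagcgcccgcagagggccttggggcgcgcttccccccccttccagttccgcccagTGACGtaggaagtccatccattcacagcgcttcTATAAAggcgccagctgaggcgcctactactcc
Fosb, chr7:19310046-19310245, minus strand: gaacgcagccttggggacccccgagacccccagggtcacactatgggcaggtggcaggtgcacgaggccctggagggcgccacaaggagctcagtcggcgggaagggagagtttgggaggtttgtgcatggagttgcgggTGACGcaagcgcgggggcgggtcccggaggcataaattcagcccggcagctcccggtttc
Atf3, chr1:191183334-191183533, minus strand: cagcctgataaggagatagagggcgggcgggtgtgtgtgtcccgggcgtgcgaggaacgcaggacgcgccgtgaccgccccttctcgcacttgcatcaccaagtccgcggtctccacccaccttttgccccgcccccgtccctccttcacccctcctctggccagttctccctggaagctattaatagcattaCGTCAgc
Cyr61, chr3:145649986-145650185, minus strand: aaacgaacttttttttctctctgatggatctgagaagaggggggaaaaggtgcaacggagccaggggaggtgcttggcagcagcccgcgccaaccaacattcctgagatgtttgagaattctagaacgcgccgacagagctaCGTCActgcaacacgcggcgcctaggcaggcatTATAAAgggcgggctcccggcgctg

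For comparison, the same stretch of 2 genes that were higher holds no TGACG, and only Kap holds TATAAA. The printed genes are examples that were not drawn by a rule, so the contrast between them is no result.

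Serpina1c, chr12:103904951-103905150, minus strand: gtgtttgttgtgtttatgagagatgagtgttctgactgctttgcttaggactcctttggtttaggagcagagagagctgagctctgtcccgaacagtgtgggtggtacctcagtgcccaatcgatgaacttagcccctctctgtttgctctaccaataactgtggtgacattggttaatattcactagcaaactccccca
Kap, chr6:133853668-133853867, minus strand: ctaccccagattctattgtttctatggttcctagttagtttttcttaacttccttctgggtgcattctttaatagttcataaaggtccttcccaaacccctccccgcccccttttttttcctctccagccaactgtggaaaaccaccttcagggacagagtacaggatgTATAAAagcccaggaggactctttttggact

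Within 250 bases before the start, TGACG on either strand was found in 15 of the 25 immediate early genes that have a promoter in the table (60%) and in 19.8% of all 27025 genes. The full element TGACGTCA, which contains TGACG, was in 4 of 25 (16%) and in 1.77% of all genes. TATAAA was in 4 of 25 (14.3% of all genes). Of the 12 genes with the highest ratios 9 have a promoter in the table, of which 1 (C2cd4a) held TGACG, 5 held TATAAA and 2 held the AP-1 element. Of the 12 with the lowest ratios 9 have one, and 6 of these held TGACG, while Cxcl2, Jun and Klf6 did not. The AP-1 element TGACTCA or TGAGTCA was in 1 of the 25 (5.16% of all genes), the CArG box in 2 of 25 (1.62% of all) and the palindromic estrogen response element in 0 of 25 (0.0666% of all). A match of letters is not a bound site.

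The 12 genes with the lowest ratios were Cxcl2, Itpkc, Atf3, Fosb, Tnfaip3, Jun, Trib1, Hbegf, Egr1, Klf6, Cyr61 and Dusp1. Jun, which pairs with Fos proteins to form AP-1, was at 61.5 CPM in cluster 2 (56.9 to 66.3). In the other luminal clusters it ran from 56.9 CPM in cluster 1 over a median of 448 CPM to 1162 CPM in cluster 7. Egr1, a zinc finger factor induced by growth factors, was at 53.4 CPM and elsewhere at 40.1 to 937 CPM. Klf6 was at 95.8 CPM against 89.5 to 2014 CPM, and Fos itself, just outside the 12, was at 205 CPM against 182 to 2310 CPM. In each of these the low end was cluster 1 and the high end cluster 7.

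Several of the 12 act outside transcription. Hbegf, a ligand of the EGF receptor, was at 30.6 CPM against 276 CPM in the pool and was the only 1 of the 12 that was lowest in cluster 2 of all 9. Its lowest neighbour, cluster 1, held 31.3 CPM. Cxcl2, a neutrophil chemokine, was at 7.55 against 91.3 CPM, or 12.1-fold lower (9.70 to 15.2). Tnfaip3, an inhibitor of NF-kB, was at 15.4 against 155 CPM, and Dusp1, a phosphatase of MAP kinases, at 12.3 against 101 CPM. Of 12 NF-kB and cytokine genes 5 reached the level and all 5 were at least 1.5-fold lower, against 4.6% of all genes. Of these, 3 reached it only through the pool and so had to be lower, while 2 reached it in cluster 2 itself.

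Low immediate early RNA was not particular to cluster 2. By the summed level, the 9 luminal clusters ordered as 3125 CPM in cluster 1 (3092 to 3158), 3166 in cluster 2 (3133 to 3200), 3381 in cluster 10, 3837 in cluster 6, 5054 in cluster 9, 9157 in cluster 5, 14277 in cluster 11, 15693 in cluster 0 and 19485 in cluster 7. The intervals of clusters 1 and 2 overlapped. Against cluster 1 alone, none of the 16 immediate early genes at the level passed 1.5-fold in either direction. By this sum clusters 1, 2, 6, 9 and 10 lay far below clusters 0, 7 and 11.

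**Figure D3:**
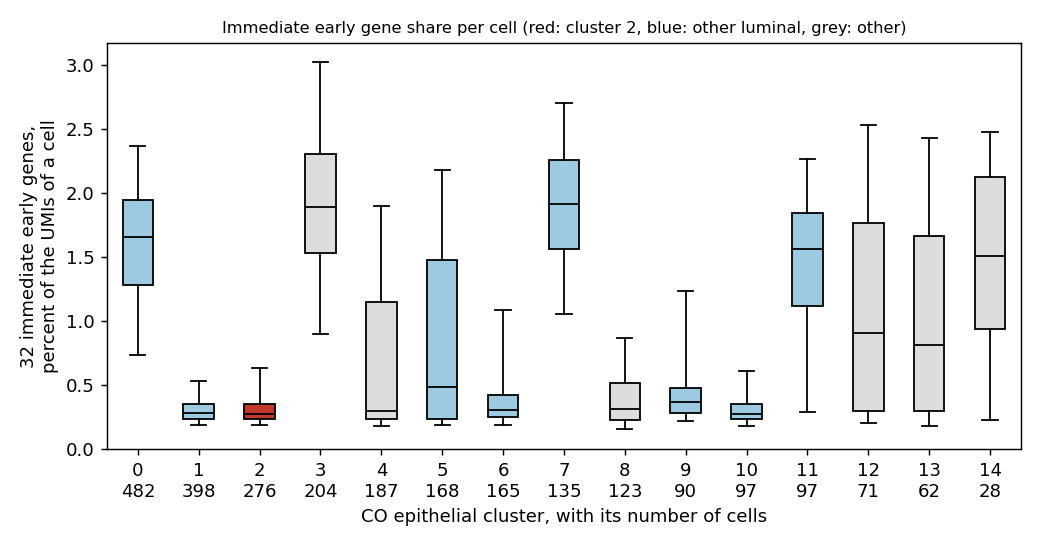
Share of a cell's UMIs from the 32 immediate early genes (vertical axis, percent) in the 15 CO epithelial clusters, with the number of cells under each. Boxes span the quartiles with the median as a line, and whiskers the 5th to 95th percentile; the median was 0.276% in cluster 2 (red), 0.280% in cluster 1 and 1.66% in cluster 0.

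Single cells showed the same division. In cluster 2 the quartiles of the immediate early share were 0.232% and 0.350%, and 95% of the cells lay at or below 0.636%. In cluster 0 only 3.73% of cells lay at or below that value (2.23 to 5.84%), in cluster 11 13.4% and in cluster 7 0 of 135, which allows up to 2.70%. In cluster 1 it was 97.0%, in cluster 10 94.8%, in cluster 6 87.9% and in cluster 9 84.4% (75.3 to 91.2%). Cluster 5 held both kinds, with 55.4% at or below. A cell's UMI total and its immediate early share had a Spearman rho of -0.17 in cluster 2 and 0.15 in the pool. Among cells at or below the pool's median depth, Jun had a log2 ratio of -3.10 and Serpina1c one of 2.32. With this limit 19 named genes moved outside the counting interval of the reported value, 5 did not and none reversed. The part of depth was not tested further than this.

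Heat shock genes differed less. Of 14 listed 13 reached 50 CPM (2 only through the pool), 3 were at least 1.5-fold lower, against 4.6% of all genes, and none higher, with a median log2 ratio of -0.33. Dnajb1, a co-chaperone, was at 54.2 against 280 CPM, and Hspa1a at 33.5 against 54.6 CPM. Cldn4, a tight junction protein that is no immediate early gene, was at 33.3 against 223 CPM and at 13.8 to 584 CPM across the other luminal clusters. The cells had been released with trypsin, partly in a warm water bath, and the share of that step in these levels was not tested.

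**Figure D4:**
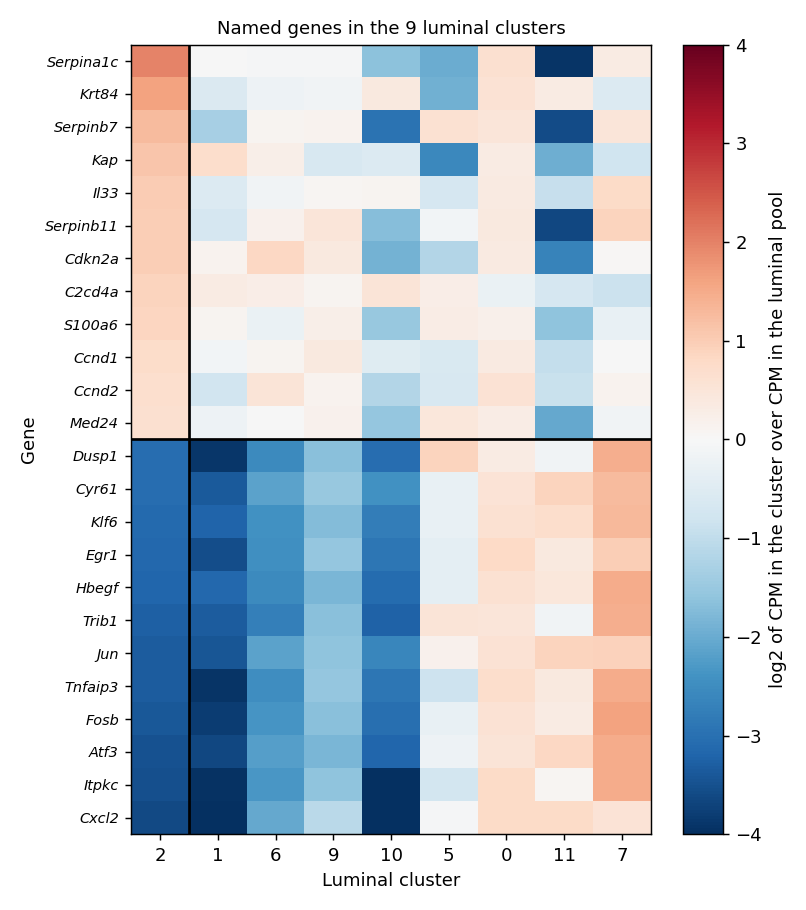
The 24 named genes (rows) in the 9 luminal clusters (columns), as the log2 of the level in a cluster over the level in the pool of the 8 other luminal clusters. The upper 12 rows are highest in the first column, cluster 2, with Serpina1c at 1.99, while in the lower 12 rows clusters 2, 1 and 10 are all low and clusters 0 and 7 are high.

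Cluster 1 was the cluster most like cluster 2 over the 2827 genes (root mean square log2 difference 0.20, Pearson r 0.991 across genes, which are not replicates), followed by cluster 6 (0.29). Against cluster 1, 13 genes were at least 1.5-fold higher (0.47% of 2768) and 6 lower (0.217%). Serpinb7 was 6.09-fold higher, Krt84 4.57-fold, Serpina1c 4.06-fold, Serpinb11 3.14-fold, Il33 2.95-fold and Ccnd2 2.73-fold. Lower were Peg10, an imprinted gene, at 30.3 against 61.9 CPM, and Lrg1 at 38.3 against 63.7 CPM, among others. Kap was only 0.41 higher on the log2 scale. Against cluster 10, 85 genes were higher (3%) and 104 lower (3.67%), with Aqp4 at 99.6 against 2.53 CPM and the claudin Cldn2 at 1.87 against 55.8 CPM. Against cluster 6, 54 genes were higher (1.91%) and 58 lower (2.06%). Against cluster 0, 25 were higher (0.871%) and 187 lower (6.51%).

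In the authors' joint clustering of CO and DES epithelial cells, 228 of the 276 cells (82.6%, 77.6 to 86.9%) were in integrated cluster 0, 31 in cluster 14 and 16 in cluster 1. Cluster 1 of the CO clustering likewise had 93.0% of its cells in integrated cluster 0, and cluster 10 had 92.8%. Of the luminal clusters with high immediate early RNA, cluster 0 had 96.3% and cluster 7 96.3% in integrated cluster 1. Most cells of cluster 6 (80.6%) were in integrated cluster 14, where 11.2% of cluster 2 was also found.

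The 4608 DES epithelial cells with a cluster differed from cluster 2 in part of the same genes. Kap was at 46.0 CPM in them, 21.1-fold below cluster 2, and Krt84 at 43.7 CPM, 7.44-fold below. Serpina1c at 373 CPM was close to cluster 2, while the 16 DES clusters spread from 60.2 to 841 CPM. Serpinb11 was higher, at 301 CPM or 4.57-fold, and Serpinb7 at 189 CPM or 2.78-fold. Summed immediate early RNA was 2798 CPM in all DES clusters together and 14626 CPM in DES cluster 9, the highest. Condition and library cannot be told apart in these values.

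The sections measured uteri of other mice without dissociation. Section totals were 9117099 to 12506177 UMIs over 1357 to 1834 spots of several cells each, so fewer cells of a type and less RNA per cell cannot be told apart. In the CO sections the spot cluster with the highest epithelial marker level held Serpina1c at 260 and 1610 CPM, against 58.2 and 318 CPM in the other spots. There, the immediate early list summed to 2703 and 2729 CPM, against 1841 and 1473 CPM in the other spots. Jun ran the other way, at 49.3 and 54.5 CPM against 109.6 and 91.8 CPM. So did Atf3, at 1.07 and 2.71 against 23.8 and 23.8 CPM, and Cyr61 and Dusp1 in both sections. Fosb had only 4 and 1 UMIs in the epithelial spot cluster, too few to show a direction. Trib1 and Klf6 were higher in the epithelial spot cluster of both sections, and Egr1 only in that of the second. The sum of the list does not stand for each of its genes. In cluster 2 the list stood at 3166 CPM, but these are other assays and levels are given side by side only.

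Summed over a section and scaled by TMM, the 2 CO mice differed widely in several genes that lead cluster 2. Kap was at 212 and 2679 CPM, Serpina1c at 146 and 839 CPM, and Krt84 at 128 and 32.6 CPM. The DES sections held Kap at 14.8 and 34.2 CPM, below both CO sections. In an edgeR quasi-likelihood fit (p adjusted by Benjamini-Hochberg over 14098 genes), the log2 fold change of Kap, DES over CO, was -5.88 ± 1.39 (SE, adjusted p = 0.0855), and over 8 alternatives it ran from -6.77 to -3.11, the latter without the second CO section, and passed 0.05 under 4. The 2 mice behind the single-cell library were pooled, and whether cluster 2 came more from 1 of them was not tested.

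Of all genes tested in sections 376 were higher in DES (2.67%) and 371 lower (2.63%), or 5.3% in either direction. Of the 12 genes with the highest ratios in cluster 2, 4 were higher in DES and none lower. Il33 was at 27.6 and 24.9 CPM in CO and at 273 and 283 CPM in DES, a difference of 3.40 ± 0.18 on the log2 scale (SE; edgeR adjusted p = 0.0141). Serpinb11 was at 25.5 and 13.1 CPM in CO and at 433 and 434 CPM in DES (4.49 ± 0.38, adjusted p = 0.0202). Cdkn2a was at 2.71 and 0.480 CPM against 27.1 and 28.6 CPM (4.09 ± 0.68, adjusted p = 0.0429), and Ccnd2 at 12.9 and 8.16 CPM against 32.1 and 31.5 CPM (1.59 ± 0.28, adjusted p = 0.0466). Serpinb7, at 35.9 and 7.48 CPM against 393 and 421 CPM, missed the threshold (adjusted p = 0.0522) and passed it under 5 of 8 alternatives (adjusted p from 1.7e-10 to 0.161). Each of the 4 calls was lost in 2 or 3 of 8 alternatives, with adjusted p up to 0.0604 for Il33 and Serpinb11, 0.162 for Cdkn2a and 0.256 for Ccnd2.

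DES uteri also hold basal cells, which lie under the columnar layer. In the 647 DES epithelial cells without a DES cluster, where the basal keratin Krt5 was at 1559 CPM against 0.305 CPM in CO epithelial cells, Il33 was at 613 CPM, Cdkn2a at 145 CPM, Ccnd2 at 254 CPM, Serpinb7 at 291 CPM and Serpinb11 at 214 CPM. Serpina1c at 57.9 CPM and Kap at 5.11 CPM were low in those cells. In the whole sections Krt5 was at 0.875 and 98.9 CPM in CO and at 4804 and 3396 CPM in DES. The smooth muscle gene Actg2 was at 2852 and 2638 CPM in CO and at 242 and 267 CPM in DES, and Myh11, Des and Cnn1 were also lower in DES. The part of basal cells and of muscle in the section differences was not tested.

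**Figure D5:**
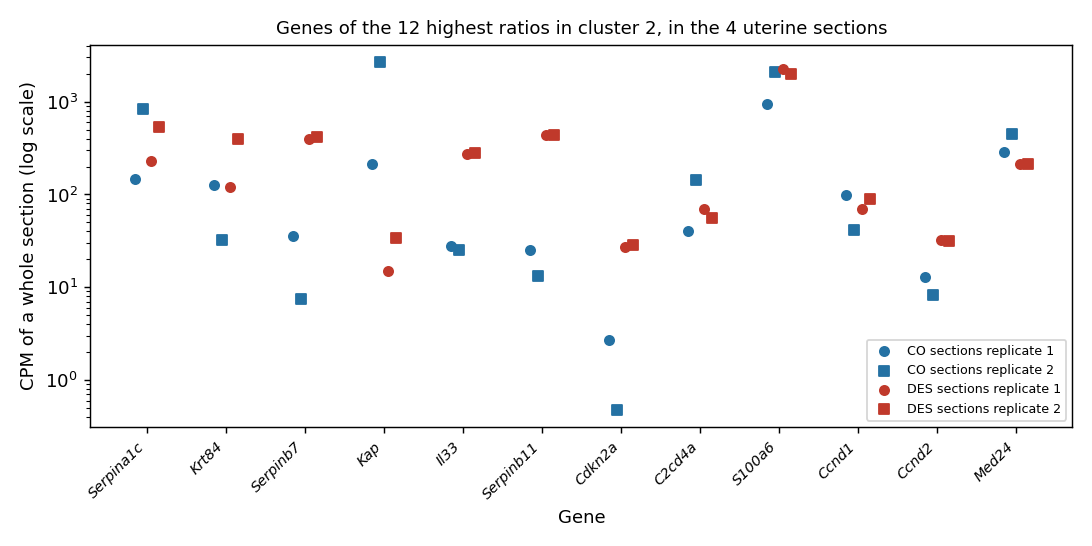
CPM of whole uterine sections (vertical axis, log scale, TMM scaled) for the 12 genes with the highest ratio in cluster 2, with each point 1 section of 1 mouse; CO is blue and DES red. For Il33 the DES sections sit at 273 and 283 CPM above the CO sections at 24.9 and 27.6 CPM, while for Serpina1c the groups overlap (146 and 839 against 230 and 528 CPM).

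Of the 12 genes with the lowest ratios, 10 were tested in the sections and none passed the threshold in either direction. Cxcl2 and Fosb were below the count filter. Of the 32 immediate early genes 29 were tested, 2 were higher in DES and 1 was lower, against 2.67% and 2.63% of all genes. Junb was at 50.2 and 50.9 CPM in CO and at 115 and 108 CPM in DES (1.14 ± 0.16, adjusted p = 0.0306), and Hes1, a Notch target, was at 74.1 and 63.6 CPM in CO and at 201 and 216 CPM in DES (adjusted p = 0.0219). Ier3 fell from 357 and 261 CPM to 78.0 and 68.7 CPM (-2.08 ± 0.23, adjusted p = 0.0219). Leaving out either DES section left 0 genes lower and 3 or 14 genes higher among all genes, and leaving out a CO section gave 1148 or 1311 higher.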

How the data were processed

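Single-cell RNA (Chromium 3′) was counted in 1 CO and 1 DES library, and spatial RNA (Visium) in 2 CO and 2 DES sections. Per the labels, the authors ran bcl2fastq 2.20.0.422, Cell Ranger 3.0.1 and Space Ranger 1.2.2 on mm10, and the deposited counts are raw UMIs per gene. The authors looked for swapped barcodes and removed doublets. The authors' metadata give sequencing saturation as a fraction, which entered no result. Here UMIs were summed per cluster and divided by the sum to give CPM, with exact Poisson or binomial 95% intervals. A gene counted as higher or lower at 1.5-fold or more when it reached 50 CPM in cluster 2 or the pool. The 12 highest and the 12 lowest ratios were named, with members of gene lists. Section UMIs were summed over all spots and tested with edgeR 4.0.16 (quasi-likelihood test, TMM, filterByExpr, adjusted p under 0.05), with DESeq2 1.42.0 as an alternative. The tests were checked on simulated data, in which edgeR recovered 95 of 100 genes of 4-fold and 21 of 100 of 2-fold change. The simulation gave every gene the same dispersion of 0.05. These rates do not carry over to genes that varied more between mice, such as Kap. Members and lists were chosen with earlier results of these data known, among them the authors' table of genes for this cluster. The authors' comparison tables were not used. Gene positions are from GENCODE M21 and promoters from RefSeq, both GRCm38. Each section is from 1 mouse per the study, so section p-values rest on 2 mice per condition.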

Additional observations from a re-analysis of the deposited data

How the results depend on the processing

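The 14 higher genes became 23 against all other CO epithelial clusters, 30 after thinning, 27 at a level of 20 CPM, 7 at 200 CPM and 5 at 2-fold, and 35 among cells at or below the pool's median depth. The 130 lower genes became 237 at 20 CPM, 35 at 200 CPM, 69 at 2-fold and 6 against cluster 1. Against cluster 1 the log2 ratio turned positive for Cxcl2 (0.57), Itpkc (0.42), Atf3 (0.17), Fosb (0.43), Tnfaip3 (0.57), Jun (0.11), Trib1 (0.053), Egr1 (0.41), Klf6 (0.10), Cyr61 (0.30) and Dusp1 (0.84), and the median did for the immediate early list (0.10) and the NF-kB list (0.57). The depth limit, the comparison with cluster 1 and the removal of shared barcodes were chosen after seeing the data. Over all alternatives 153 of 264 values of the 24 named genes stayed within the counting interval of the reported value, 100 lay outside it and 11 reversed.

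In the sections DESeq2 called 822 higher and 969 lower. Leaving out 1 section gave 3 to 1311 higher and 0 to 1508 lower. With a replicate block 298 were higher and 229 lower, and Cyr61 turned to 0.14; the replicate numbers do not pair the sections (correlation of deviations -0.012). Leaving out 1 section gave log2 fold changes that changed sign, from -1.15 to 1.37 for Serpina1c, -1.17 to 0.64 for C2cd4a, -0.34 to 0.92 for Ccnd1, -0.20 to 0.73 for Tnfaip3, -0.34 to 0.16 for Hbegf, -0.39 to 0.43 for Egr1, -0.40 to 0.052 for Klf6 and -0.97 to 1.37 for Cyr61. The causes were not tested. With 2 mice per condition, changes of 2-fold were mostly missed on simulated data.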
